A study of Mus musculus with 8 samples.

Results

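The start sites of long intergenic noncoding RNA (lincRNA) genes were examined in 8 ChIP-seq peak lists. A gene was taken when GENCODE M21 gives it the type lincRNA and its start lies 5000 bp or more from the start of any protein-coding transcript, and its window reached 1000 bp to either side of that start. Of 5854 lincRNA genes on chromosomes 1 to 19, X and Y, 5196 met this rule and 658 did not, and the annotation as a whole gave 55413 gene start windows. A window was called bound in a list when a peak overlapped it by 20 bp or more.

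The cells were mouse embryonic stem cells of the line E14Tg2a at passages 37 to 40, and cells of 5 plates were pooled for each immunoprecipitation. Pluripotent cells (ESCs) grew with LIF, the leukemia inhibitory factor. The neuronal cells (NCs) were LIF-free monolayers given 1 µM retinoic acid (RA) for 48 h. FGFR1, RXR and Nur77 had 1 LIF library each. FGFR1 had 2 RA libraries, and RXR, Nur77 and the histone variant H3.3 had 1 RA library each. FGFR1 is a growth factor receptor that also enters the nucleus, RXR is the shared partner of many nuclear receptors, and Nur77 is an orphan nuclear receptor. All groups came from the same line, and the labels name no genetic change in the cells. Replicate 2 of FGFR1 in RA carries the tag Exp2 in its title, and whether it came from a separate culture is not given in the sources used here.

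LincRNA genes are transcribed by RNA polymerase II, capped, and mostly spliced, but they encode no protein. Their promoters are as a class weaker and poorer in CpG islands than those of protein-coding genes, and many lie inside or next to enhancers. Some, such as Malat1 and the hosts of small nucleolar RNAs, are active in nearly every cell, whereas others are restricted to a lineage.

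Bound lincRNA windows held sequence of more than 1 kind, and 9 stretches of 151 bases are printed to show them. Each is centred on the summit of the strongest peak of the list named here and runs 5′ to 3′ on the strand of the lincRNA. Coordinates are in mm10 (GRCm38), from whose RefSeq copy the bases were read. The first 6 are CpG-rich starts at the summit of FGFR1 in RA replicate 2. Malat1, 1810044D09Rik and Snhg6 were also bound by FGFR1 in LIF, Snhg12 was bound in replicate 2 alone, and C030034I22Rik and D130017N08Rik were bound by FGFR1 in both RA libraries and not in LIF. Capitals mark each CG.
Malat1, chr19:5802566-5802716, minus strand: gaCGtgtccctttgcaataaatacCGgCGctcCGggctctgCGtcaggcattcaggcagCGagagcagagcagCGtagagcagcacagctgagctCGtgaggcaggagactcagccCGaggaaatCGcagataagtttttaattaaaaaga
1810044D09Rik, chr6:91440857-91441007, plus strand: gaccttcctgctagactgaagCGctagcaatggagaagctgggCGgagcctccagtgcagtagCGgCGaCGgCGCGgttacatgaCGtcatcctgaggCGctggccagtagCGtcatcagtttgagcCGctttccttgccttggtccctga
Snhg6, chr1:9944016-9944166, minus strand: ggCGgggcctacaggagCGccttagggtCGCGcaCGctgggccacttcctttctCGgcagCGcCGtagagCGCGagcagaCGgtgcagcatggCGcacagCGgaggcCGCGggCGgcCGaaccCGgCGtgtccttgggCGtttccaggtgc
Snhg12, chr4:132308700-132308850, plus strand: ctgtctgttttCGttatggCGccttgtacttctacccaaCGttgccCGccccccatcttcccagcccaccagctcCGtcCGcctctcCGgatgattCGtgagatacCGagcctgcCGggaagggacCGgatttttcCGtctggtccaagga
C030034I22Rik, chr17:69417203-69417353, plus strand: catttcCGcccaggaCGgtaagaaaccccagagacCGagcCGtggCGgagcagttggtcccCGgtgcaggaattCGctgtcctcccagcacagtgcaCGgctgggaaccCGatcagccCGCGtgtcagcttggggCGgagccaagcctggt
D130017N08Rik, chr5:143758200-143758350, plus strand: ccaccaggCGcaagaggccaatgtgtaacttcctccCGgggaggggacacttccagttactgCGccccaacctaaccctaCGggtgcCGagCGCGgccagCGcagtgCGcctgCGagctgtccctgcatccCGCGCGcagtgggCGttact

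These 6 stretches held 10 to 20 CG dinucleotides each. Their summits lay 31 bp (Malat1), 27 bp (Snhg6) and 152 bp (Snhg12) downstream of the gene start, in an exon of the lincRNA. The other summits lay upstream of the start, by 55 bp in 1810044D09Rik, 124 bp in C030034I22Rik and 79 bp in D130017N08Rik. The 1810044D09Rik stretch holds the palindrome TGACGTCA, the cAMP response element, and no stretch of the others does.

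The next 2 stretches show the other frequent kind, an alternation of purines and pyrimidines. They come from the strongest lincRNA peak of FGFR1 in LIF (Gm26520) and of H3.3 (1700120C18Rik). Capitals mark alternating runs of 20 bp or more, of which the longest was 37 bp in Gm26520 and 91 bp in 1700120C18Rik. Both summits lay upstream of the gene start, and the 1700120C18Rik summit lies in an intron of the lincRNA Gm2694.
Gm26520, chr12:3357237-3357387, minus strand: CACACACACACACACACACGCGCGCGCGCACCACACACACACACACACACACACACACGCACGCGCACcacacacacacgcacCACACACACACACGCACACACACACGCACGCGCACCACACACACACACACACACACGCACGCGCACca
1700120C18Rik, chr8:87501550-87501700, minus strand: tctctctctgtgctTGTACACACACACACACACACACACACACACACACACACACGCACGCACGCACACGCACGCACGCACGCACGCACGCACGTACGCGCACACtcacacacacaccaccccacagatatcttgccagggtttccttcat

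The last stretch is from Platr4, a pluripotency-associated transcript bound by FGFR1 in LIF and in no other list. Its summit lay 508 bp upstream of the gene start, outside any annotated gene. Capitals mark AGGTCA, the word that nuclear receptors bind. The stretch is not typical in this. Of the 79 FGFR1 LIF summits in lincRNA windows only 2 (2.53%) had the word in the 200 bp around them. It was present in 13.3% of all 200-bp pieces of lincRNA windows.
Platr4, chr3:41493625-41493775, minus strand: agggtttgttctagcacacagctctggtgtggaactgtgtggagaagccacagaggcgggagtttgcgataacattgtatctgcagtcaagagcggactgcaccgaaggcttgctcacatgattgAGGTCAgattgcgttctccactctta

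LincRNA windows were bound far less often than protein-coding starts in every list. The 95% intervals given for shares are exact Clopper-Pearson intervals and cover counting error only. FGFR1 in LIF bound 74 of the 5196 windows, a share of 1.42% (interval 1.12% to 1.78%), against 14.9% of 21938 protein-coding windows and 7.39% of all gene start windows. In RA, FGFR1 bound 359 windows in replicate 1, or 6.91% (6.23% to 7.63%), where the share of all windows was 23.1%. In replicate 2 it bound 171, or 3.29% (2.82% to 3.81%), where the share of all windows was 22%.

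The receptors and H3.3 gave shares of the same order. RXR bound 220 windows in LIF (4.23%, against 19% of all windows) and 124 in RA (2.39%, against 10%). Nur77 bound 160 in LIF (3.08%, against 11.2%) and 171 in RA (3.29%, against 11.1%). H3.3 peaks overlapped 61 windows in RA (1.17%, against 6.57%). The protein-coding share was from 6.43 to 13.9 times the lincRNA share, over all 8 lists.

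As a set, lincRNA windows were nevertheless bound more often than a genomic background away from coding starts. Tiles of 2000 bp that lie 5000 bp or more from every protein-coding start served as that background, 1189664 in all. The lincRNA share was 1.96 times the tile share for H3.3, 2.24 times for FGFR1 in LIF, and from 2.08 to 2.96 times in the other lists except FGFR1 in RA replicate 2. In that replicate the lincRNA share was 15.8 times that of tiles, of which 0.208% held a peak.

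**Figure D1:**
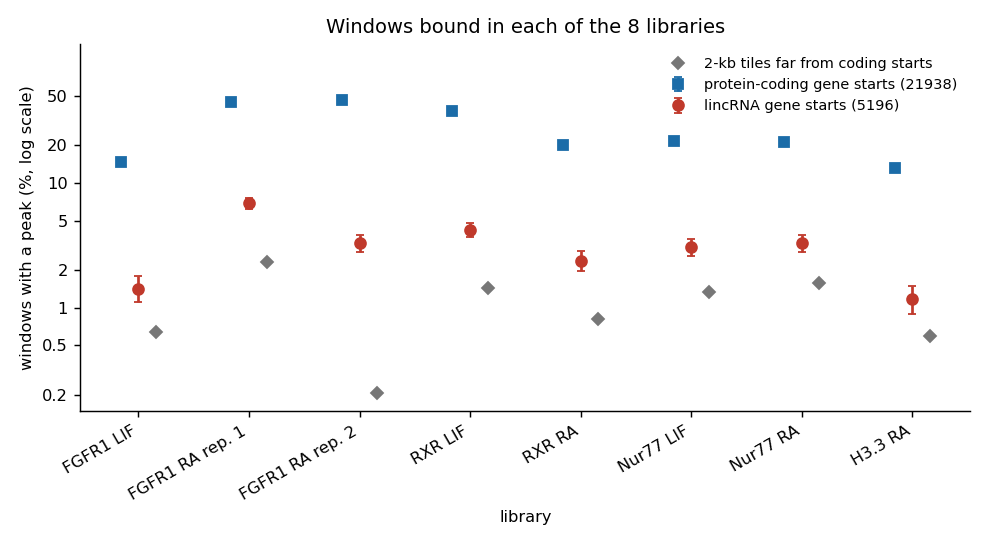
Share of windows with a peak in each library, in percent on a log axis, for lincRNA gene starts (circles), protein-coding gene starts (squares) and 2-kb tiles far from coding starts (diamonds). Bars are exact 95% intervals and cover counting error only. In every library the lincRNA share lies between the other two kinds of window, and the tile share is lowest, at 0.208%, in FGFR1 RA replicate 2.

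Distance to the nearest coding start set apart the genes that the rule left out. The 658 lincRNA genes nearer than 5000 bp were bound at 9.27% (H3.3) to 39.1% (FGFR1 RA replicate 1). Among the members, 18.4% of the windows 5000 to 10000 bp from a coding start were bound in at least 1 list, 18.3% of those from 10000 to 50000 bp, 10.9% from 50000 to 200000 bp, and 5.88% beyond. The 5 genes just outside the limit, from 2310075C17Rik at 4922 bp to Gm15729 at 4987 bp, had 1 bound window among them (2310075C17Rik, in 2 lists). The 5 just inside, from AW121686 at 5002 bp to Gm26709 at 5033 bp, also had 1 (Gm26709, in 3 lists).

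In all, 637 lincRNA windows were bound in at least 1 list, or 12.3% (11.4% to 13.2%), against 59.7% of protein-coding and 32.4% of all windows. Most were bound in few lists. A single list held 355 of them, 111 were bound in 2 lists, 64 in 3, and 107 in 4 or more. The windows of 36 of the 637 overlap that of another bound member, and the 637 represent 619 separate loci.

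Binding followed CpG content. The CpG ratio, observed over expected CG dinucleotides in the 501 bp around the gene start, had a median of 0.207 over all members, 0.194 in unbound windows, 0.336 in bound windows and 0.577 in windows bound in 4 or more lists. Only 240 members (4.62%) reached a ratio of 0.6, whereas 10747 protein-coding starts (49.0%) did. Of those 240 lincRNA starts 50% (43.5% to 56.5%) were bound in some list, and of the 2511 with a ratio below 0.2 only 5.93% (5.04% to 6.93%).

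Within each class of CpG ratio the lincRNA share was below the coding share in every list. Ratios were not matched inside a class. In the class of 0.6 or more, FGFR1 in RA replicate 2 bound 35.8% (29.8% to 42.3%) of lincRNA and 78.8% (78.0% to 79.5%) of coding starts. FGFR1 in LIF bound 9.58% (6.17% to 14.0%) and 26.9% (26.1% to 27.8%). In the class below 0.2 the FGFR1 LIF shares, 0.757% of lincRNA and 0.882% of coding starts, had intervals that overlapped. In RA replicate 2 that class gave 0.398% (0.191% to 0.731%) of lincRNA and 1.64% (1.30% to 2.04%) of coding starts, and the intervals were apart. FGFR1 RA replicate 1 gave 2.83% (2.21% to 3.55%) and 3.65% (3.14% to 4.21%) there. Those intervals overlapped, as they did in every list but replicate 2.

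**Figure D2:**
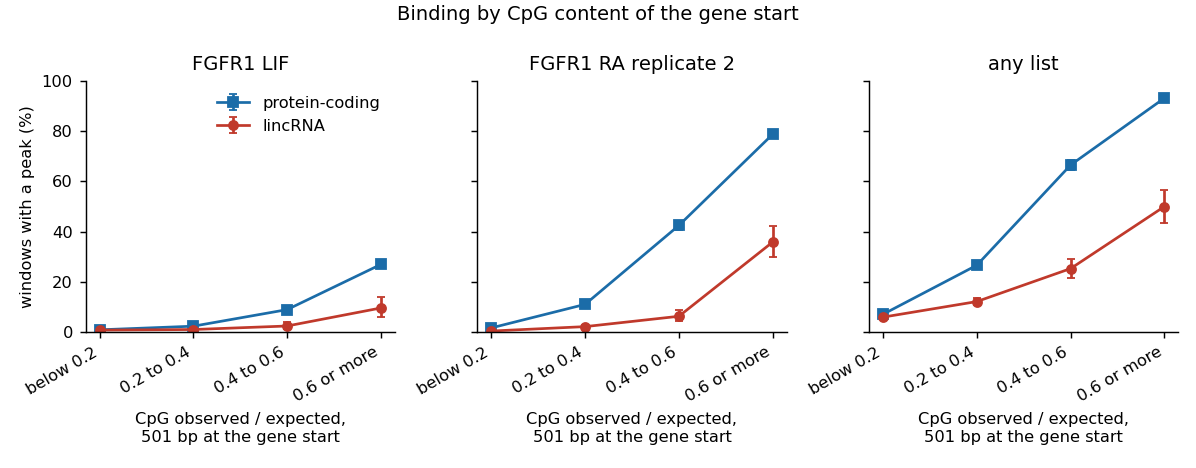
Share of windows with a peak, in percent, by class of CpG ratio in the 501 bp around the gene start, for lincRNA (circles) and protein-coding genes (squares), in FGFR1 LIF, FGFR1 RA replicate 2 and any of the 8 lists. Bars are exact 95% intervals. Both kinds of gene rise with CpG ratio, and in the highest class the lincRNA share in any list is 50% against 93.2% for coding genes.

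The other sequence feature of bound lincRNA windows was the alternating purine-pyrimidine tract of 20 bp or more. Such tracts can adopt the left-handed Z form of DNA. They were held by 45.6% of the FGFR1 LIF peaks in lincRNA windows (36 of 79), 44.3% of the H3.3 peaks, 35.4% of the Nur77 RA, 34.9% of the RXR RA, 26.7% of the Nur77 LIF, 18.1% of the RXR LIF and 16.1% of the FGFR1 RA replicate 1 peaks. In FGFR1 RA replicate 2 the share was 2.73% (5 of 183). At coding starts it was 0.948% to 4.03%, while in the tiles it reached 72.2% for FGFR1 in LIF.

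Tract peaks were not weak peaks. MACS2 scores a peak by the −log10 p of its summit, and the median −log10 p in FGFR1 LIF was 15 for lincRNA peaks with a tract and 11.4 for those without. The medians of peaks with a tract were the higher in all 8 lists.

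**Figure D3:**
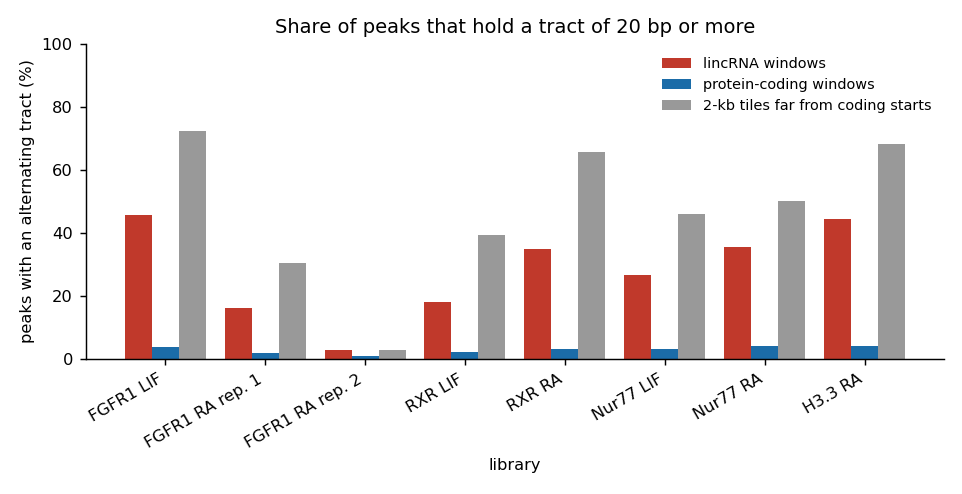
Share of peaks, in percent, that hold an alternating purine-pyrimidine tract of 20 bp or more, by library, for peaks in lincRNA windows, in protein-coding windows and in 2-kb tiles far from coding starts. The lincRNA bars lie between the other kinds except in FGFR1 RA replicate 2, where they reach 2.73% against 2.65% in tiles.

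Bound windows were therefore sorted by both features. For this, tracts were sought only in the strongest peak of each list in a window. Of the 637, 134 had a tract in 1 or more of these peaks, 110 had no tract there and a CpG ratio of 0.6 or more, and 393 had neither. Tract windows made up 51.4% of the windows bound by FGFR1 in LIF, 45.9% of those with H3.3, 20.3% of those of FGFR1 RA replicate 1 and 4.68% of those of replicate 2. The CpG-rich class without tracts held 27%, 29.5%, 22% and 47.4% of the same 4 sets.

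Depth differed among the libraries and was not stated, so a background density was solved from the fold and −log10 p of each peak. That density ran from 1.27 fragments per kb in H3.3 to 7.09 in RXR LIF, with 2.71 in FGFR1 LIF, 4.16 in RA replicate 1 and 6.78 in replicate 2. The median number of fragments at a lincRNA summit was 8.5 to 12 in 7 lists and 20 in replicate 2. With so few fragments per peak, a window with no peak cannot be called unoccupied.

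Only 6 windows were bound in all 8 lists, or 0.115% of the members, where 1.09% of all gene start windows and 2.33% of the coding ones were. The 6 were of unlike kinds. The gene 1810044D09Rik on chromosome 6, whose nearest coding gene is Wnt7a at 29624 bp, had −log10 p values of 7.82 (FGFR1 LIF), 41.8 and 105 (FGFR1 RA replicates 1 and 2), 17 (RXR LIF), 14.9 (RXR RA), 13.3 (Nur77 LIF), 26.6 (Nur77 RA) and 19.8 (H3.3). Its 8 summits lay from 61 to 31 bp upstream of the gene start, within the stretch printed above.

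Gm33195 on chromosome 13, 79894 bp from the start of Cd83, had the same CpG ratio of 0.70 as 1810044D09Rik. Its values were 8.52 in FGFR1 LIF, 17.5 and 46.6 in FGFR1 RA, 18.5 and 14.8 for RXR in LIF and RA, 11.2 and 10.9 for Nur77, and 10.4 for H3.3. The summits lay between 97 bp upstream and 119 bp downstream of its start. FGFR1 RA replicate 2 was the highest library at both genes, and FGFR1 LIF the lowest.

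Gm26562 on chromosome 16 was bound at more than 1 place. In 6 lists the peak held a tract and its summit lay 786 to 939 bp downstream of the start, in an intron. In FGFR1 RA replicate 2 and RXR LIF the summit lay 359 and 348 bp upstream, without a tract. Counting a window as bound therefore did not always mean that the factors met at 1 site.

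The remaining 3, Gm26917, Gm42418 and AY036118, are neighbours on chromosome 17. The rRNA annotated as CT010467.1 (chr17:39846353-39848827, minus strand) overlaps Gm42418 and AY036118, and Gm26917 ends just beside it. Ribosomal RNA genes are repeated in tandem, and most copies are missing from the assembly. The summits here held 138 to 228 fragments in the FGFR1 LIF and RA replicate 1 libraries and 302 to 305 in replicate 2, many times the medians above. At Gm26917 the −log10 p ran from 28.1 (RXR LIF) to 68.2 (H3.3), and several summits fell outside the windows, at 1024 to 1657 bp from the start. Without these 3 genes, a setting chosen after seeing the data, 3 windows remained bound in all 8 lists.

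More widely, 46 windows were bound in 6 or more lists, 28 without a tract in the strongest peak of any list and 18 with. The same count and split were not made for coding or for all gene start windows, so no background share stands beside them. Of the 28, 24 were bound in FGFR1 RA replicate 2 and 19 had a CpG ratio of 0.6 or more. Of the 18, only 3 were bound in that replicate and 2 reached that ratio.

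**Figure D4:**
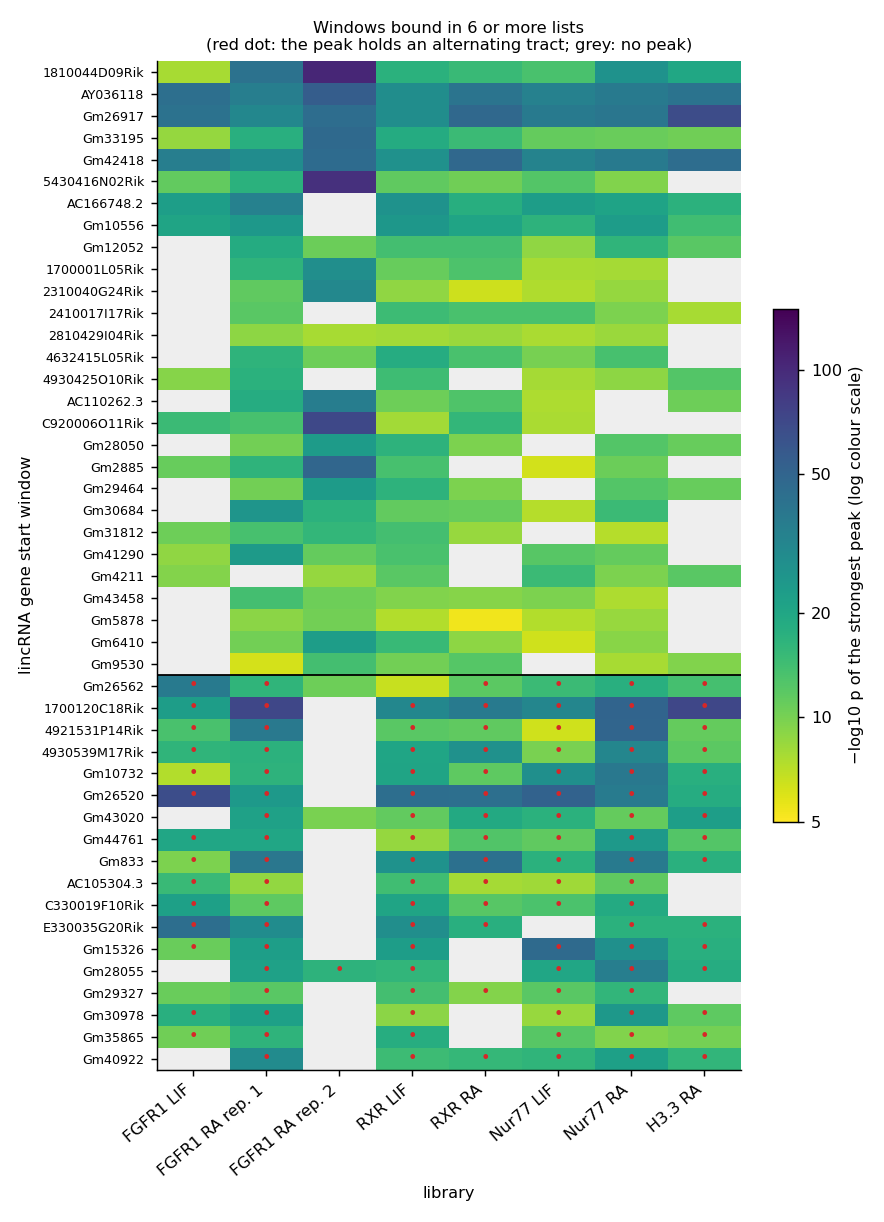
The −log10 p of the strongest peak (log colour scale) in each library for the 46 lincRNA windows bound in 6 or more lists. Grey cells had no peak, red dots mark peaks that hold an alternating tract, and the line parts the 28 windows without tracts (above) from the 18 with (below). The column of FGFR1 RA replicate 2 is filled in 24 of the upper windows and in 3 of the lower.

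The strongest lincRNA peaks differed between the FGFR1 libraries. In replicate 2 Malat1, a nuclear speckle RNA, led with a −log10 p of 142, rank 56 of 14082 peaks in the list. Malat1 had 36.9 in replicate 1, 15.7 in LIF and 9.88 in RXR LIF, and no peak in the other 4 lists. Its 4 summits lay 11 to 31 bp downstream of the start (ENSMUSG00000092341.3, chr19:5795690-5802672, minus strand, GRCm38), in the exon. Epb41l4aos, whose window holds the start of the small nucleolar RNA gene Gm23639, followed with 117 in replicate 2, 29.3 in replicate 1 and 18.5 in LIF.

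In 6 of the other lists a window with a tract led, and in RXR RA Gm42418 of the rRNA region did, at 47.3. Gm26520 (chr12:3343816-3357153, minus strand), 7979 bp from the nearest coding start in Kif3c, had 67.3 in FGFR1 LIF, 51.8 in Nur77 LIF, 43.8 in RXR LIF, 43.2 in RXR RA, 36.2 in Nur77 RA, 24.1 in FGFR1 RA replicate 1 and 18.3 in H3.3. It had no peak in replicate 2. The window of 1700120C18Rik (chr8:87500049-87501231, minus strand), between 22.6 and 73.1 in 7 lists, had none in replicate 2 either. It was the strongest lincRNA window of H3.3, at rank 15 of 10634 peaks, and of FGFR1 RA replicate 1, at 72.9.

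Other leading windows showed the same split. E330035G20Rik had 43.8 in FGFR1 LIF and 28.6 in RA replicate 1, Gm46329 had 42.3 in RA replicate 1, Gm15326 had 46.3 in Nur77 LIF, 4921531P14Rik had 49.3 in Nur77 RA and AC113104.3 had 30.6 in RXR LIF. All these peaks held a tract, and none of the 5 windows was bound in FGFR1 RA replicate 2. The leading window 4930555G21Rik, at 41.7 in Nur77 RA, had no tract and was also without a peak in that replicate.

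LIF and RA were compared to ask how FGFR1 occupancy differs between ESCs and NCs. The number of bound windows was 4.85 times that in LIF in replicate 1 and 2.31 times in replicate 2, a mean of 3.58 ± 1.80 (SD, n = 2), or 265 ± 133 windows against 74. Both RA counts exceeded the LIF count. The SD covers the 2 RA libraries only, and the spread of the LIF count is not known. For coding windows the ratio was 3.05 ± 0.055 (SD, n = 2). The RA libraries also differed in the median width of all their peaks, 89 bp in replicate 1 and 311 bp in replicate 2, and in the width of the narrowest peak, 72 and 153 bp, which was taken as the fragment length. The part of these in the replicate comparisons was not tested. Both ratios share the same LIF library, and with 1 library in LIF no test was run.

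The ratio depended on list length. With the 11378 strongest peaks of each list, the length of the FGFR1 LIF list, the counts were 74 in LIF, 96 in replicate 1 and 125 in replicate 2, ratios of 1.30 and 1.69. For coding windows the same cut gave 1.11 and 2.79. Without tract peaks, 38 windows remained in LIF and the mean ratio was 6.14.

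RXR and Nur77 were measured once in each state. RXR windows fell to 0.564 of their LIF number in RA and Nur77 windows stood at 1.07 times theirs, close to the coding ratios of 0.532 and 0.977. The RXR direction turned with equal list lengths, at 1.23 (73 windows in LIF and 90 in RA), while the coding ratio stayed below 1 at 0.877. Neither receptor has a replicate, and the depth of the RXR library was 1.87 fragments per kb in RA against 7.09 in LIF. The part of depth in these ratios was not tested.

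The replicates of FGFR1 in RA shared 106 lincRNA windows. These were 62.0% (54.3% to 69.3%) of the windows of replicate 2 and 29.5% (24.9% to 34.5%) of those of replicate 1. At coding starts the shares were 76.4% and 78.4%. In 91 of the 106 windows the peaks themselves overlapped. With lists of equal length the share of replicate 2 windows found in replicate 1 was 26.4%.

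The overlap of the replicates was counted in each sequence class. In the CpG-rich class without tracts, 79 windows were bound in replicate 1, 81 in replicate 2 and 60 in both. Of tract windows 73 were bound in replicate 1, and 8 of these in replicate 2 as well. The class with neither feature had 207, 82 and 38.

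**Figure D5:**
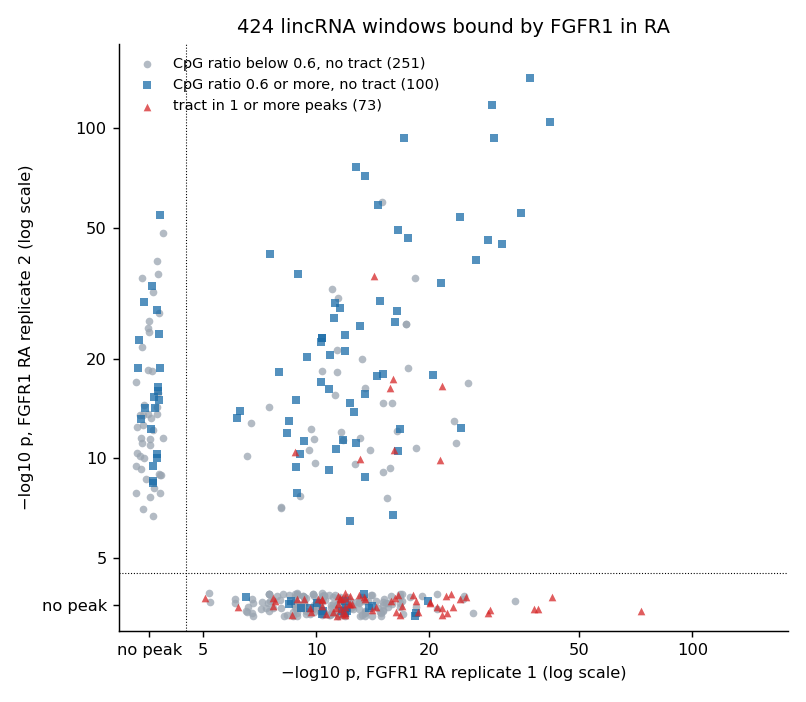
The −log10 p of the strongest FGFR1 peak in RA replicate 1 (x axis) and replicate 2 (y axis), both on log axes, for the 424 lincRNA windows bound in either. Points beyond the dotted lines had no peak in that replicate and are spread sideways only for display. Triangles (73 windows with a tract) lie mostly along the foot of the plot, without a peak in replicate 2. Of the squares (100 CpG-rich windows without a tract), 60 had a peak in both replicates. So did 38 of the circles (251 windows with neither feature).

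FGFR1 binding was gained with RA, in the sense of a peak in both RA libraries and none in LIF, at 84 lincRNA windows. That is 1.62% of the members, where 10.5% of all gene start windows showed the same pattern. With lists of equal length 17 windows were gained and 33 were bound in LIF only, so the order of these counts, 84 against 21 with the full lists, turned. Another 22 windows were bound in all 3 FGFR1 libraries, or 0.423% of the members against 6.14% of all gene start windows. LIF and replicate 1 shared 28 (0.539% against 0.615%), and LIF and replicate 2 shared 3 (0.0577% against 0.377%). Replicate 1 alone held 225 (4.33% against 5.85%) and replicate 2 alone 62 (1.19% against 4.96%). The gained windows had a median CpG ratio of 0.674, and 57.1% of them were CpG-rich. That trait was not particular to gained windows. The share was 77.3% in the 22 windows bound in all 3 FGFR1 libraries, 29.0% in those of replicate 2 alone and 8.44% in those of replicate 1 alone.

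The strongest gained window by the lower of its RA values was C030034I22Rik (chr17:69417402-69421632, plus strand), whose start region lies in an exon of the lincRNA A930029G22Rik. It had a −log10 p of 26.6 in replicate 1 and 39.9 in replicate 2, with RXR at 12.3 in LIF and 8.39 in RA and Nur77 at 12 in RA. AC110262.3 followed with 18.3 and 35.3 in the RA replicates, at summits 744 and 643 bp into an intron. D130017N08Rik (chr5:143758354-143768575, plus strand) had 20.4 and 17.9, and no peak of RXR, Nur77 or H3.3 in any list.

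Of the other leading gained windows, Gm47231 had 17.4 and 25.5, Gm30684 25.4 and 16.9, 1700001L05Rik 16.4 and 28.0, and Gm37494 15.1 and 18 in RA replicates 1 and 2. The Gm47231 summits lay 1001 and 994 bp upstream of its start, in an exon of the lincRNA Gm47232. Those of Gm30684 lay 475 and 653 bp downstream, in an intron. Gm28055 (21.5 and 16.6) and Lockd (15.7 and 16.3) held tracts in both RA peaks, and Gm20732 (16 and 17.3) in replicate 2. Lockd is transcribed 8579 bp from the start of Cdkn1b, the gene of a cell cycle inhibitor. The part of the tracts in these gains was not tested.

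Other factors were counted at the gained lincRNA windows and not at gained coding windows, so no background share stands beside these values. RXR was already present in LIF at 51.2% of the 84 windows and Nur77 at 28.6%, while in RA RXR stood at 31.0%, Nur77 at 34.5% and H3.3 at 14.3% of them. In 32.1% (27 windows) no list other than the FGFR1 ones held a peak. Of the 22 windows bound in all 3 FGFR1 libraries, 90.9% had RXR in LIF and 1 had no other factor.

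Windows bound by FGFR1 in LIF and in neither RA library numbered 21, or 0.404% of the members, against 0.254% of all gene start windows. The count was 33 with lists of equal length and 10 without tract peaks. The 21 windows were of another kind, with a median CpG ratio of 0.242, none CpG-rich, and 61.9% with a tract. Gm11535, 16765 bp from Hoxb13, led with 18.8, followed by Platr4 with 17, Gm30929 with 16.6, Gm8075 with 16.5 and Gm30808 with 15.6. Platr4 was the one among these 5 whose FGFR1 peak held no tract. In 71.4% of the 21 windows no other factor was called, a share likewise counted for lincRNA windows only.

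Many windows bound in LIF had no peak of the same factor in RA. Of the 74 FGFR1 LIF windows 67.6% (55.7% to 78.0%) were bound in RA replicate 1 and 33.8% (23.2% to 45.7%) in replicate 2, where 93.1% and 92.3% of coding windows were. Of the RXR windows 33.6% (27.4% to 40.3%) and of the Nur77 windows 40.6% (32.9% to 48.7%) were bound again in RA, against 43.9% and 52.3% at coding starts. In the 7 libraries other than FGFR1 RA replicate 2, the median −log10 p was 10.1 to 12.3 for lincRNA peaks and 9.55 to 11.8 for coding ones. In that replicate the lincRNA median was the lower, at 14.3 against 23.1.

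Factors also shared windows. In LIF, RXR was present at 58.1% (46.1% to 69.5%) of FGFR1 windows, against 83.8% (82.5% to 85.1%) at coding starts. Nur77 was present at 47.3% (35.6% to 59.3%) against 59.5% (57.7% to 61.1%), and these intervals overlapped. FGFR1 stood without RXR or Nur77 at 35.1% of its lincRNA and 11.3% of its coding windows in LIF. In RA these shares were 63.0% and 41.4% for replicate 1 and 60.8% and 48.4% for replicate 2. In RA, H3.3 was found at 13.9% of the windows of FGFR1 replicate 1 and 12.3% of those of replicate 2, where coding windows gave 27.7% and 23.6%. Conversely, of the 61 H3.3 windows 82.0% (70.0% to 90.6%) were bound in FGFR1 replicate 1 but 34.4% (22.7% to 47.7%) in replicate 2.

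Known lncRNAs were then looked up by name in 5 lists. The lists were drawn up with earlier results of these data known, so their counts are a description. Of the 11 hosts of small RNAs and abundant nuclear RNAs 9 were bound in some list, where 12.3% of all members were. FGFR1 in each RA library bound 6 of them, FGFR1 in LIF 2, RXR in LIF 4, and H3.3 and Nur77 in LIF none. Snhg6, a host of small nucleolar RNAs on chromosome 1, had 15.6 in FGFR1 LIF, 29.7 in RA replicate 1 and 93.2 in replicate 2.

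Other members of that list were bound in fewer libraries. Snhg12, which lies 5238 bp from the start of Rab42, had 54.7 in replicate 2 alone. Neat1, the scaffold of paraspeckles, had 13.3 in replicate 1 with a summit 520 bp upstream, and 19.95 in replicate 2 with a summit 43 bp downstream. Snhg20 had 10.4 and 18.4 with summits 822 and 821 bp downstream, in an exon.

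The microRNA hosts had values from 7.97 to 12.9. Mir17hg, the host of the miR-17 cluster, had 8.96 in FGFR1 RA replicate 2, 12.9 in RXR RA and 10.9 in Nur77 RA. Mir155hg had 11.9 in FGFR1 RA replicate 1 and 7.97 in RXR LIF, the neural host Mir124a-1hg had 12.1 in FGFR1 RA replicate 1, and Mir9-3hg had 11.9 in RXR LIF. Mir670hg and Mir124-2hg had no peak in any list.

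The stem cell list had 19 members, of which 3 were bound in some list, where 12.3% of all members were. Besides Platr4, Platr19 had 12.5 in FGFR1 RA replicate 1 and 8.65 in RXR LIF, 766 and 830 bp into an intron, and Platr27 had 12.1 in Nur77 RA.

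Of the 3 neural and mesodermal members, Miat had 9.4 in FGFR1 RA replicate 1 and Bvht, a regulator of cardiac commitment, had 18.4 in replicate 2. Rmst, a partner of Sox2 in neurogenesis, had no peak. Among the 6 imprinted and X-linked members, Meg3, an imprinted gene, had 11.0 in FGFR1 RA replicate 2 with its summit 3 bp upstream of the start, and Jpx, an activator of Xist, had 18.4 in FGFR1 RA replicate 1 and 13.2 in RXR LIF. H19, Mirg, Xist and Ftx had none. Of the 2 members linked to Hox clusters, Halr1 had 10.2 in FGFR1 RA replicate 1 and 10.5 in RXR LIF, with summits 34 and 33 bp upstream, and Hotair had none.

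Some strongly bound windows shared their start with another small RNA gene. Their names were chosen after the values were seen. C920006O11Rik holds the start of Rn7sk, the 7SK RNA that restrains transcription elongation, and had 71.7 in FGFR1 RA replicate 2, 13.5 in replicate 1 and 14.7 in LIF. The window of 5430416N02Rik holds 2 starts of the type misc_RNA and had 93.1, 17.1 and 11.4 in the same libraries. Over all members, another gene's start lay in 12.7% of bound and 6.65% of unbound windows. Fragments at such windows cannot be assigned to 1 of the genes.

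Summits were spread across the windows. They lay within 250 bp of the gene start in 33.7% (Nur77 RA) to 56.9% (FGFR1 RA replicate 2) of the pairs of peak and window, against 55.1% to 72.8% at coding starts. RefSeq gives a start for 1816 members matched by symbol, and it lay within 100 bp of the GENCODE start for 67.4% of bound and 62.1% of unbound members. The annotated start is thus uncertain for a share of the windows.

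Sequence words were counted in the 200 bp around each summit, on both strands. The nuclear receptor word AGGTCA was present in 2.53% (FGFR1 LIF) to 13.0% (FGFR1 RA replicate 1) of summits in lincRNA windows, and in 13.3% of all 200-bp pieces of lincRNA windows. The cAMP response element TGACGTCA was present in 0.794% to 2.73% of summits and 0.185% of pieces, and the ETS word CCGGAAG in 0% to 9.29% and 1.31%. The E-box CACGTG (5.91% to 12.7% against 2.59% of pieces) and the NRF1 word GCATGCGC (1.59% to 3.73% against 0.306%) are themselves alternations of purine and pyrimidine. The YY1 word AAGATGGC was present in 0% (FGFR1 LIF) to 2.19% (FGFR1 RA replicate 2) of summits, against 1.74% of pieces. The CTCF word, in which some letters may vary, was present in 0% (FGFR1 LIF) to 3.97% (RXR RA), against 0.266% of pieces. In FGFR1 RA it was present in 2.86% (replicate 1, 11 summits) and 2.19% (replicate 2, 4 summits). In peaks without a tract, CACGTG was present in 5.67% (RXR LIF) to 11.8% (H3.3), the latter 4 summits. AGGTCA was present in 2.94% (H3.3) to 12.7% (FGFR1 RA replicate 1) of such peaks, with 4.65% (0.568% to 15.8%) in FGFR1 LIF. A match is a string of letters and not a measured site.

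Chromosomes differed in the share of bound members. It was highest on chromosome 17, at 24.0% (18.3% to 30.5%) of 200 members, and 21.2% (15% to 28.6%) of 151 on chromosome 11. On chromosome X 4 of 91 members were bound, or 4.40% (1.21% to 10.9%). On chromosome Y none of 548 was, which allows a share of up to 0.671% at the upper end of its interval. Reads that map to more than 1 place had been dropped, and the mappability of these windows was not measured. Without chromosome Y the share bound in some list was 13.7% (12.7% to 14.7%) of 4648.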

How the data were processed

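In all, 8 libraries of chromatin immunoprecipitated from E14Tg2a cells were compared, and groups were read from the sample titles. Per the study's methods, the authors mapped reads with Bowtie, kept those with a unique place in mm10, and called peaks with MACS2 in each library by itself, with a p limit of 1e-05 and no control named. The deposited lists give peak positions, a score, the fold over background as a ratio, and −log10 p and −log10 q values. The authors' read files were not used here. A background density was solved from each list's fold and −log10 p, to within 0.002 of the listed −log10 p for 100% of peaks. The narrowest peak of a list was taken as its fragment length.

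Gene starts came from GENCODE M21, and sequence from the GRCm38 assembly of RefSeq. Overlaps, CpG ratios, tracts and words were computed with Python 3.11.15, numpy 2.4.6, pandas 2.3.3 and scipy 1.17.1, and plotted with matplotlib 3.10.9, by scripts tested on simulated data. Shares carry exact Clopper-Pearson 95% intervals, which treat windows as independent although neighbours overlap. No group but FGFR1 in RA has 2 libraries, so no p-value was computed. Genes were named by fixed ranks: those bound in all 8 lists, the strongest of each list, the strongest gained or found in LIF only, and the known lncRNA lists. The members and lists were chosen with earlier results of these data known. Alternatives varied the p limit, list length, window, distance, tracts and annotation.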

Additional observations from a re-analysis of the deposited data

Results flagged for a closer look

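The number of lincRNA windows bound by FGFR1 in RA was 4.85 times that in LIF for replicate 1 and 2.31 times for replicate 2, while the number bound by RXR in RA was 0.564 of that in LIF. These were marked because the factors moved in opposite directions between the same cell states. The difference was not tested, since RXR has 1 library in each state, and the RXR direction turned with lists of equal length.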

How the results depend on the processing

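Of 194 values recomputed under alternatives, 164 stayed close to the value reported (counts within 1.5 times, the FGFR1 ratio within its SD, other values within their intervals), 29 moved further and 1 turned. The cause of these moves was not tested. Some of the 164 could not have moved. A −log10 q limit of 2 removed no peak, since the lowest listed value was 2.21. Leaving out chromosome Y removed no bound window. The FGFR1 ratio of either RA library alone lies within the SD of the 2 by construction. Leaving out either FGFR1 RA library gave ratios of RA to LIF of 2.31 to 4.85. With lists of equal length the RXR ratio turned to 1.23, the FGFR1 ratio was 1.49, the bound windows were 96 (FGFR1 RA replicate 1), 73 (RXR LIF), 75 (Nur77 LIF) and 72 (Nur77 RA), 344 windows were bound in some list, 17 were gained, 33 were in LIF only, and 26.4% of replicate 2 windows were in replicate 1. At a −log10 p of 10 or more the windows were 116 (RXR LIF), 67 (RXR RA), 81 (Nur77 LIF) and 106 (Nur77 RA), that share was 51.4%, and 3 were bound in all lists. With windows of 500 bp to each side they were 45 (FGFR1 LIF), 80 (RXR RA), 105 (Nur77 LIF), 101 (Nur77 RA) and 36 (H3.3). Without tract peaks they were 38 (FGFR1 LIF), 81 (RXR RA), 109 (Nur77 RA) and 34 (H3.3), with an FGFR1 ratio of 6.14 and 10 in LIF only. Over the 4190 members 5000 bp or more from every other gene start, FGFR1 RA replicate 2 bound 113 and 2 were bound in all lists. Without the rRNA region, chosen after seeing the data, 3 were. No paired analysis was possible because no 2 groups compared share more than 1 replicate number. The small number of fragments per peak limits what a missing peak shows.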
